A study of Xenopus laevis with 72 samples.

Results

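Transcripts of hoxb4.S (gene ID 734796) and hoxd4.L (gene ID 100380950) were followed in whole wildtype embryos of the frog Xenopus laevis. Both are homeobox genes of Hox paralogue group 4. They were chosen by name as the 2 members of this group among the 24 genes of the panel, of which 23 were target genes and 1, gapdh, was the reference. X. laevis carries many genes in duplicate, and the suffixes L and S name the subgenome of each copy. The measurements, by high-throughput quantitative PCR, cover 72 samples, 1 from each of 6 clutches (G to L) in each of 12 groups.

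The embryos came from in vitro fertilization, and each clutch was the eggs of 1 female. From late blastula, stage 9.5, to early gastrula, stage 10.25, they spent 2 h in 10 nM all-trans retinoic acid (RA), in 50 µM 4-diethylaminobenzaldehyde (DEAB), which inhibits the enzymes that oxidize retinaldehyde to RA, or in neither. The drug was then washed out, and 5 to 10 embryos per sample were pooled at 0, 1.5, 3 and 4.5 h after the wash. Controls received no drug, and the stocks of both drugs were made in DMSO.

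Hox genes lie in clusters and encode transcription factors that give cells their position along the head-to-tail axis. Genes toward one end of a cluster are switched on earlier and further forward than their neighbours. Paralogue group 4 marks the posterior hindbrain and the adjoining neck region. RA acts through nuclear receptors on DNA, and in the mouse Hoxb4 and Hoxd4 have neural enhancers with binding sites for these receptors. In RefSeq, hoxb4.S lies next to hoxb5.S, and its span overlaps that of a locus without a gene name. The neighbours of hoxd4.L are hoxd3.L, whose annotated span overlaps it, and hoxd8.L. Whether the primers tell these overlapping transcripts apart was not tested.

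Values are log2 levels relative to gapdh, with 0 at the median of the gene over all samples, so that a step of 1 is a doubling. Since the primers differ, levels are not compared between genes. Both genes gave a value in 72 of 72 samples. Their threshold cycles (Ct, lower for more transcript) ran from 15.54 to 23.16 for hoxb4.S and from 16.57 to 27.41 for hoxd4.L. The number of template molecules is unknown, so no counting error is included. The limma errors of a gene use 1 estimate of its spread, from all 72 samples after group and clutch means. Empirical Bayes (eBayes) moves this estimate toward a value shared by the target genes. The sign-flip tests use the 6 clutches alone. A pair of samples stood apart over the panel. In the 0 h DEAB samples of clutches K and H the root mean square deviation from the fitted group and clutch means was 1.74 and 1.41, against a median of 0.507 over all samples. DEAB differences at 0 h and DEAB time steps from 0 h are therefore given with all clutches, without clutch H and without clutch K. These clutches were left out singly, not together.

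The first question was when each gene rose in control embryos. Both genes were low at the wash and climbed through gastrulation, 33.7-fold for hoxb4.S and 65.7-fold for hoxd4.L by 4.5 h. On the mean of the 6 clutches their main steps fell in different intervals. For hoxb4.S it was between 1.5 and 3 h, and for hoxd4.L between 3 and 4.5 h. Clutch I was an exception, where hoxd4.L gained 2.38 between 1.5 and 3 h and 1.91 after. Subtracted clutch by clutch, hoxd4.L gained less than hoxb4.S between 1.5 and 3 h and more between 3 and 4.5 h, each in 6 of 6 clutches. Each exact sign-flip permutation p was 0.03125, the smallest that 6 clutches allow, and neither difference passed after adjustment (adjusted p = 0.188). Too few comparisons reached that smallest p for any to pass, so the adjusted test could not decide.

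The level of hoxb4.S in controls ran from -4.00 to -0.79 at 0 h (median -2.17) and from -3.16 to -1.03 at 1.5 h (median -1.74). The second range lay within the first. At 3 h the clutches lay between 0.60 and 2.42 (median 1.05), all above every earlier control sample. By 4.5 h they lay between 1.44 and 3.24 (median 2.80), and this range overlapped that at 3 h. The mean rose by 5.08 in all (standard error, SE, 0.44, limma, adjusted p = 4.71e-16), in 6 of 6 clutches. The first step, 0.65 (SE 0.44), did not pass the test (adjusted p = 0.205). It was 2.96 in clutch H and -1.06 in clutch J, and 0.18 without clutch H. The second step was 3.04 (SE 0.44, adjusted p = 1.21e-07) and varied little, from 2.64 to 3.76 over the clutches. The third was 1.39 (SE 0.44, adjusted p = 0.0101). Its call was lost without clutch G (1.27, adjusted p = 0.0678) or clutch J (1.23, adjusted p = 0.0536).

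The level of hoxd4.L in controls ran from -3.68 to -1.60 at 0 h (median -2.06) and from -2.68 to -0.48 at 1.5 h (median -0.86). Samples at these times overlapped. At 3 h they lay between -0.87 and 1.76 (median 0.70), still overlapping those at 1.5 h. At 4.5 h they lay between 2.82 and 4.86 (median 3.58), above every earlier control sample. The total rise was 6.04 (SE 0.60, limma, adjusted p = 6.78e-14), in 6 of 6 clutches. The steps were 1.06 (SE 0.60, adjusted p = 0.134), 1.82 (SE 0.60, adjusted p = 0.0065) and 3.17 (SE 0.60, adjusted p = 5.45e-05). The middle step was above 0 in 5 clutches and -0.30 in clutch J, where hoxd4.L gained 1.31 before 1.5 h and 4.70 after 3 h.

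**Figure D1:**
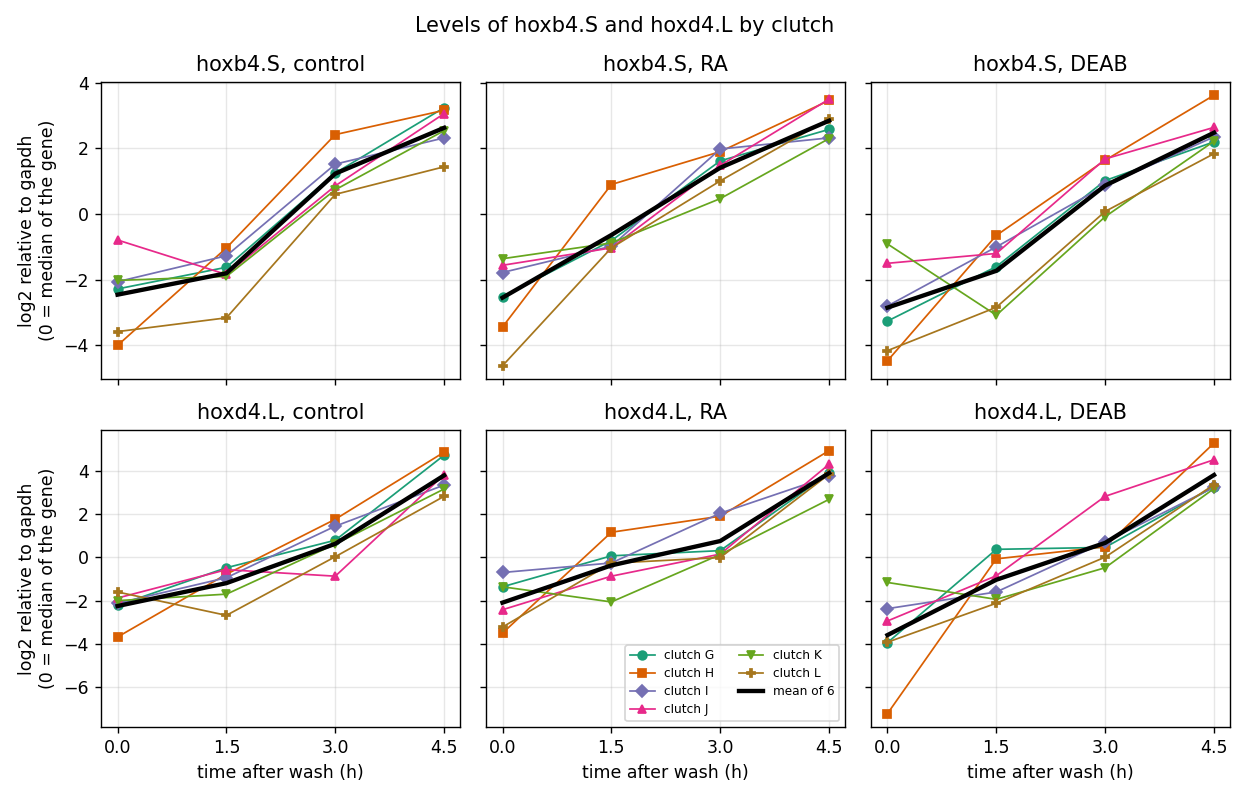
Level (log2 relative to gapdh, vertical) against time after the wash (h, horizontal) for hoxb4.S (top) and hoxd4.L (bottom) in control, RA and DEAB embryos. Thin lines are the 6 clutches and the thick line is their mean, and the mean of both genes climbs in each treatment.

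A rise was common in the panel. Of the 23 target genes, 47.8% were called higher in the first step, 69.6% in the second and 30.4% in the third, and 82.6% over the whole course. Both members were among those called in the later steps and over the course, and neither in the first. In the third step hoxd4.L had the lowest p of all target genes, and its 3.17 was the highest change in the panel, where the median was 0.41. In the second step hoxb4.S had the lowest p, at 3.04 against a median of 1.60. Of the 5 other hox genes on the panel, 3 were called higher in the first step, 3 in the second and 2 in the third, and 5 over the course, with a median rise of 5.20.

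As shares of its mean rise, hoxb4.S gained 12.7% before 1.5 h, 59.8% between 1.5 and 3 h and 27.5% after. For hoxd4.L the shares were 17.5%, 30.1% and 52.4%. The genes were measured in the same samples, so the steps could be subtracted clutch by clutch. Between 1.5 and 3 h hoxd4.L gained less than hoxb4.S (difference -1.22 ± 0.99, SD, n = 6), in 6 of 6 clutches. Between 3 and 4.5 h it gained more, by 1.77 ± 0.69, again in 6 of 6. Each gave p = 0.03125 (exact two-sided sign-flip permutation test), the smallest that 6 clutches allow, and an adjusted p of 0.188 over the 12 comparisons of this kind. Only these comparisons reached that smallest p, too few for any to pass after adjustment. The difference in the first step was 0.41 ± 1.28, with an exact p of 0.5.

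**Figure D2:**
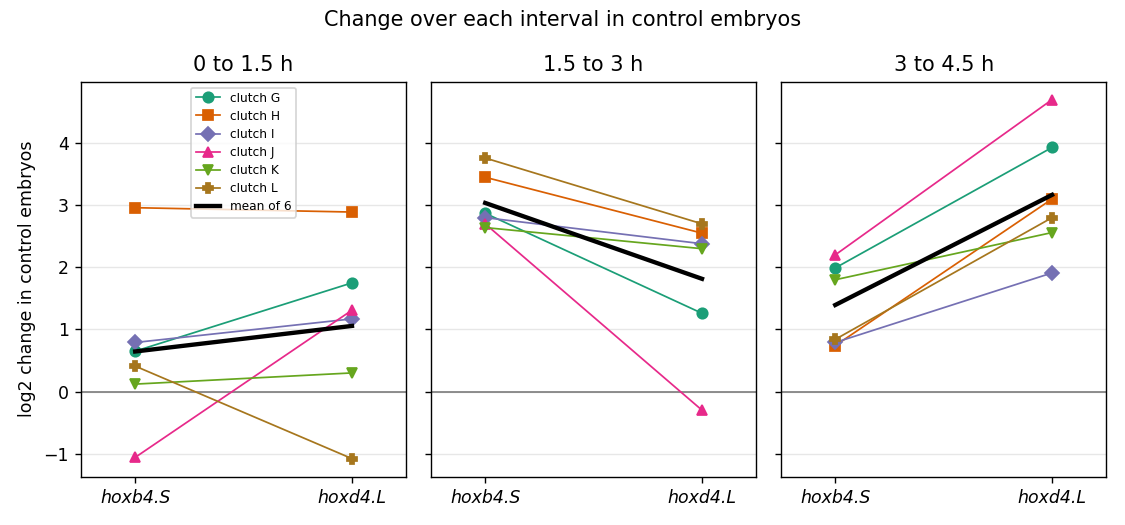
Change in level (log2, vertical) over each interval in control embryos for hoxb4.S and hoxd4.L, with a line for each of the 6 clutches and a thick line for the mean. Every line falls from hoxb4.S to hoxd4.L between 1.5 and 3 h, and every line climbs between 3 and 4.5 h.

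The timing was also read as the moment when the level crossed the midpoint between the control means at 0 and 4.5 h, by linear interpolation between sampling times. In controls hoxb4.S crossed it at 2.43 ± 0.293 h (SD, n = 6), between 1.99 and 2.80 h. For hoxd4.L the crossing came at 3.00 ± 0.439 h, between 2.42 and 3.53 h. These ranges overlapped, but within each clutch hoxd4.L was the later gene, by 0.566 ± 0.212 h, in 6 of 6.

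The rises are relative to gapdh, and its Ct was not constant. In controls it went up by 1.30 ± 1.17 cycles (SD, n = 6) from 0 to 4.5 h, with 5 clutches up and 1 down. The sign-flip test gave an exact p of 0.0625. Between 1.5 and 3 h it went up by 0.65 ± 0.36 in 6 of 6 (exact p = 0.03125). With no reference gene the total rises were 3.78 for hoxb4.S and 4.74 for hoxd4.L. Against the mean of all target genes, most of which climbed too, they were 1.69 and 2.65. All 4 of these values passed the test. On that last scale, which moved the median change of all targets by -3.39, the first steps were -0.45 for hoxb4.S and -0.04 for hoxd4.L. In whole embryos, more transcript per cell and more cells with the transcript cannot be told apart.

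Both genes climbed in treated embryos as well. In RA embryos hoxb4.S gained 1.91, 2.05 and 1.43 over the 3 intervals (SE 0.44 each), and all 3 steps passed the limma test, among 69.6%, 43.5% and 47.8% of target genes called higher. The gains of hoxd4.L were 1.72, 1.12 and 3.15 (SE 0.60 each), and the middle one did not pass (adjusted p = 0.112). Its first step was 1.13 without clutch H and lost its call without clutch L (1.47, adjusted p = 0.0557). Totals were 5.39 for hoxb4.S and 5.99 for hoxd4.L, both called, as were 87.0% of target genes.

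In DEAB embryos the gains of hoxb4.S were 1.12, 2.60 and 1.61 and those of hoxd4.L 2.55, 1.70 and 3.14. All 6 steps passed, against 65.2%, 69.6% and 43.5% of target genes called higher. The first steps were widely spread over the clutches, with clutch H the highest and clutch K the lowest for both genes. Their SD over the 6 clutches was 1.98 for hoxb4.S and 2.8 for hoxd4.L. The limma SE, 0.44 and 0.60, rests on the spread pooled over all 12 groups. The exact sign-flip p of these first steps was 0.28125 and 0.09375. For hoxb4.S the first step was 3.83 in clutch H and -2.18 in clutch K, it was 0.58 without clutch H (adjusted p = 0.222) and 1.78 without clutch K, and its call was also lost without clutch G, I or L, at 1.01, 0.98 and 1.08. For hoxd4.L it was 7.14 in clutch H and -0.77 in clutch K, 1.64 without clutch H and 3.22 without clutch K. The call of this hoxd4.L step was kept with each clutch left out. The middle step of hoxd4.L lost its call without clutch J (1.31, adjusted p = 0.0776). The total for hoxb4.S was 5.33, 4.77 without clutch H and 5.77 without clutch K. For hoxd4.L it was 7.40, 6.38 without clutch H and 8.01 without clutch K. Both totals were called, as were 91.3% of target genes.

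The next comparison set RA embryos against controls of the same clutch and time. At the end of the pulse neither group 4 gene was called. In RA the level of hoxb4.S at 0 h ran from -4.62 to -1.36 (median -2.14), and that of hoxd4.L from -3.50 to -0.70 (median -1.89). Both ranges overlapped those of the controls. The RA minus control difference was -0.09 for hoxb4.S (95% interval -0.98 to 0.79, 3 of 6 clutches above 0) and 0.16 for hoxd4.L (-1.06 to 1.37, 4 of 6). At this time 26.1% of the target genes were called higher, among them 3 of the 5 other hox genes. The differences of these 5 ran from 0.56 to 9.53, with a median of 2.26. How they differ from the group 4 genes was not tested. Of the 5, 1 lacked 19 of its values over all samples. At 0 h too few clutches held both its RA and its control value for a sign-flip test.

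At 1.5 h hoxb4.S was higher in RA embryos, 2.25-fold. Its level in RA ran from -1.03 to 0.90 (median -0.93), and these values met the control range, -3.16 to -1.03, only at its upper end. Clutch H lay far above the other RA samples. The difference was 1.17 (SE 0.44, limma, adjusted p = 0.0273), above 0 in 6 of 6 clutches, from 0.30 in clutch I to 2.13 in clutch L. With 39.1% of target genes called higher at this time, hoxb4.S ranked 9th by p of the 9 called. Without clutch H it was 1.02 (adjusted p = 0.0366). The call was lost without clutch G (1.24, adjusted p = 0.0692), without clutch L (0.98, adjusted p = 0.172) and in the fit without clutch as a block (adjusted p = 0.0637). It was kept, with a lower adjusted p, in the fit with a block for each clutch and time. That fit pairs treated and control samples of the same clutch and time. Before any reference the Ct of hoxb4.S was lower in RA by 1.06 ± 0.41 cycles, in 6 of 6 clutches, while that of gapdh differed by 0.11 ± 0.59. Fitted without a reference gene, this difference of 1.06 did not pass (adjusted p = 0.12). Against the mean of all target genes, a scale that moved the median difference by -0.96, it was 0.21 (adjusted p = 0.594).

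The level of hoxd4.L in RA at 1.5 h ran from -2.06 to 1.16 (median -0.26), overlapping the controls. Its difference was 0.82 (95% interval -0.39 to 2.03, adjusted p = 0.381), above 0 in 4 of 6 clutches, 0.50 without clutch L and -0.14 against the mean of all target genes. Clutches L and H had the highest differences, 2.40 and 1.94 for hoxd4.L, and the same clutches led for hoxb4.S. Subtracted clutch by clutch, the response of hoxd4.L differed from that of hoxb4.S by -0.35 ± 0.74 (range -1.39 to 0.39, exact p = 0.375), so a different response of the pair was not shown. Of the other hox genes 3 of 5 were called, with a median of 1.42.

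At 3 and 4.5 h the RA and control ranges overlapped for both genes. At 3 h the levels in RA ran from 0.47 to 1.98 (median 1.55) for hoxb4.S and from -0.01 to 2.04 (median 0.23) for hoxd4.L. At 4.5 h they ran from 2.30 to 3.50 (median 2.74) and from 2.68 to 4.93 (median 3.86). The differences were 0.18 and 0.22 for hoxb4.S and 0.13 and 0.11 for hoxd4.L, none called. Their 95% intervals reached from -0.71 to 1.11 for hoxb4.S and from -1.10 to 1.34 for hoxd4.L. For hoxd4.L they thus held changes of 1 in either direction. The intervals use 1 estimate of the error from all 12 groups. Over the 6 clutches the SD of the hoxd4.L differences was 0.60 at 3 h and 0.67 at 4.5 h. Among all target genes 17.4% were called higher at 3 h and 0.0% at 4.5 h, where 3 had an unadjusted limma p under 0.05 and 2 an exact sign-flip p under 0.05.

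**Figure D3:**
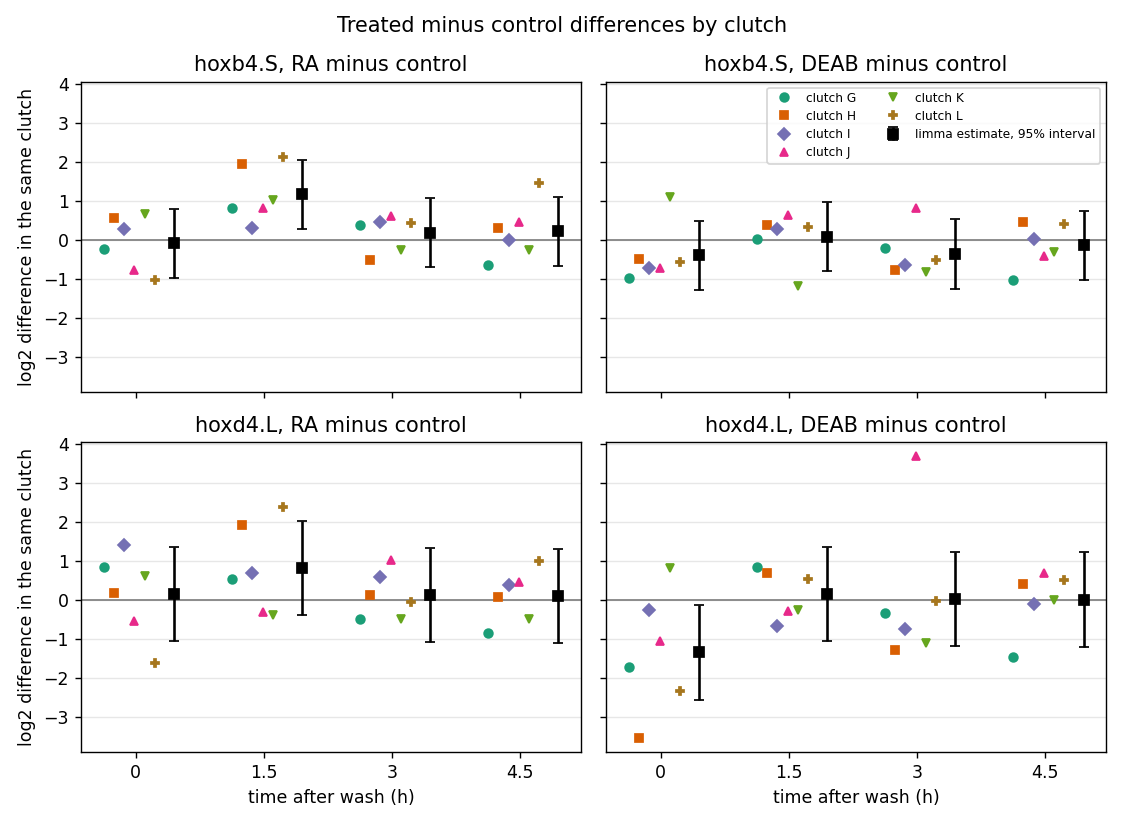
Treated minus control difference in the same clutch (log2, vertical) against time after the wash (h, horizontal), for RA (left) and DEAB (right). Coloured points are the 6 clutches, and black squares with bars are the limma estimate with its 95% interval. For hoxb4.S in RA at 1.5 h all 6 points lie above 0, and for hoxd4.L in DEAB the spread is wide at 0 and 3 h.

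Whether the RA difference changed with time was tested directly. For hoxb4.S it was higher at 1.5 h than at 0 h by 1.26 (SE 0.63), and the change was above 0 in 6 of 6 clutches. The limma p was 0.0486, but the change did not pass after adjustment (adjusted p = 0.28). In this test 0.0% of target genes were called higher and 4.35% lower. The gene called lower was 1 of the 5 other hox genes, among which 1 lacked values at 0 h. Over all 3 later times the F statistic gave an adjusted p of 0.443 for hoxb4.S and 0.957 for hoxd4.L. The RA differences at the 4 times are thus not shown to differ from each other.

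Read as timing, hoxb4.S crossed its mid level earlier in RA embryos than in controls, at 2.06 ± 0.458 h. Crossing times are interpolated from the same levels as the differences above, so they are not an independent test. The shift was -0.374 ± 0.246 h, earlier in 6 of 6 clutches, from -0.77 h in clutch H to -0.0579 h in clutch K. The exact two-sided sign-flip permutation test gave p = 0.03125 and, over the 4 shifts tested, an adjusted p of 0.125. With a lower crossing level, -0.76 in place of 0.09, the shift was -0.500 ± 0.212 h, again in 6 of 6. With a higher one, 0.93, it was -0.352 ± 0.365 h, earlier in 5 of 6 (exact p = 0.09375), and with no reference gene -0.376 ± 0.363 h, earlier in 5 of 6 (exact p = 0.0625). Against the mean of all target genes it was 0.0585 h, later in 4 of 6. For hoxd4.L the RA shift was -0.225 ± 0.483 h, earlier in 4 of 6 (exact p = 0.3125). It was -0.0618 h without clutch H and, with a lower crossing level of -0.24, -0.566 ± 0.483 h, earlier in 5 of 6 (exact p = 0.0625).

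**Figure D4:**
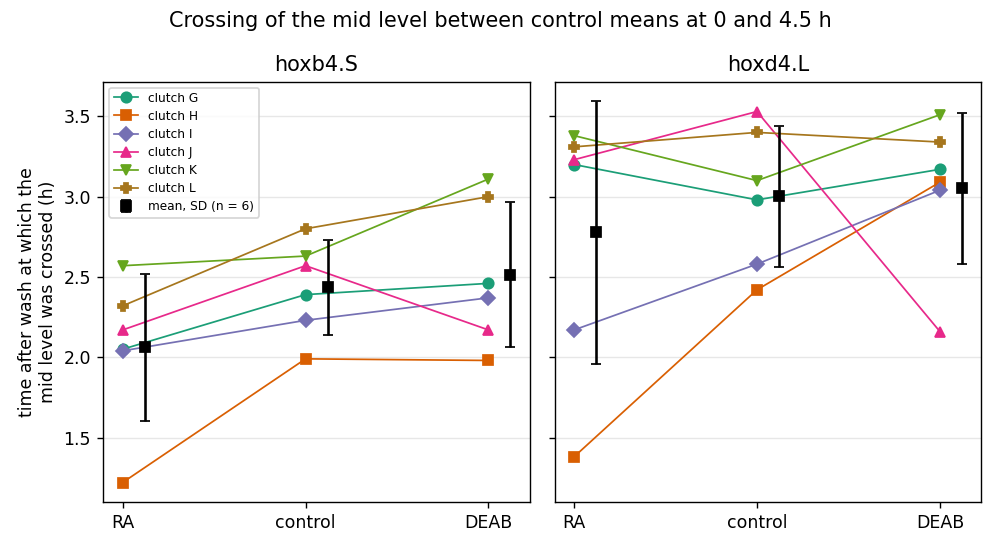
Time after the wash (h, vertical) at which each clutch crossed the mid level of the gene, in RA, control and DEAB embryos. Lines are the 6 clutches and squares with bars are means ± SD. All 6 lines of hoxb4.S climb from RA to control, with a mean RA minus control shift of -0.374 h.

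The following comparison asked what lowering RA synthesis with DEAB did. Neither gene was called at any time, and 0.0% of the target genes were called in either direction at each of the 4 times. At 0 h the level of hoxb4.S in DEAB ran from -4.47 to -0.91 (median -3.03), and that of hoxd4.L from -7.22 to -1.16 (median -3.43). The lowest hoxd4.L value, in clutch H, had a Ct of 27.41, the highest of the panel and so the nearest to the last cycle of a run. Whether this value lay near the limit of the assay was not tested. Both genes were below their controls in 5 of 6 clutches, with clutch K the exception for both.

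The DEAB minus control difference of hoxd4.L at 0 h was -1.34 (SE 0.60), from -3.54 in clutch H to 0.83 in clutch K. Its limma p of 0.0302 was the 2nd lowest of the 23 target genes, and the adjusted p was 0.348. Without clutch H it was -0.90 and without clutch K -1.78, and neither value passed after adjustment (adjusted p = 0.785 and 0.163). For hoxb4.S the difference was -0.40 (SE 0.44, adjusted p = 0.924), -0.38 without clutch H and -0.70 without clutch K. The median over all target genes was -0.02. Subtracted clutch by clutch, the response of hoxd4.L differed from that of hoxb4.S by -0.94 ± 1.27 (exact p = 0.125), -0.52 without clutch H and -1.08 without clutch K. In limma 2 of 23 target genes had an unadjusted p under 0.05 at 0 h, hoxd4.L among them, and 0 at the later times. The sign-flip test gave 0, 0, 2 and 0 at the 4 times. So few genes at its smallest p could not have passed adjustment, and none did.

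At 1.5 h the DEAB levels ran from -3.08 to -0.65 (median -1.40) for hoxb4.S and from -2.12 to 0.37 (median -1.23) for hoxd4.L. At 3 h they ran from -0.08 to 1.68 (median 0.95) and from -0.48 to 2.82 (median 0.47), and at 4.5 h from 1.84 to 3.62 (median 2.28) and from 3.18 to 5.28 (median 3.31). All of these ranges overlapped those of the controls. The differences were 0.08, -0.36 and -0.14 for hoxb4.S and 0.15, 0.04 and 0.01 for hoxd4.L. At 3 h both genes were below the control in 5 of 6 clutches, with clutch J the exception, at 0.82 for hoxb4.S and 3.70 for hoxd4.L. In that clutch the control sample was the lowest of its group for hoxd4.L and the DEAB sample the highest. Without clutch J the 3 h difference of hoxd4.L was -0.69 (adjusted p = 0.895). The crossing time moved by 0.0818 ± 0.29 h for hoxb4.S and 0.052 ± 0.737 h for hoxd4.L, with exact p of 0.5 and 0.9375. The F test of change with time, over all 6 clutches, gave an adjusted p of 0.966 for each gene. From 0 to 1.5 h the DEAB difference of hoxd4.L changed by 1.50 (SE 0.86, limma, adjusted p = 0.977). This change was 0.95 without clutch H and 2.01 without clutch K. For hoxb4.S it was 0.48 (SE 0.63, adjusted p = 0.977), 0.40 without clutch H and 1.03 without clutch K.

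RA and DEAB embryos were also set against each other. At 0 h hoxd4.L was higher in RA by 1.50 (SE 0.60, limma, adjusted p = 0.0413), in 5 of 6 clutches, from -0.20 in clutch K to 3.72 in clutch H. It was called together with 39.1% of the target genes. The call was lost without clutch H (1.05, adjusted p = 0.114), without clutch G (1.28, adjusted p = 0.176), without clutch I (1.47, adjusted p = 0.0935) and without clutch L (1.66, adjusted p = 0.0505). It was kept without clutch K (1.84, adjusted p = 0.0151). For hoxb4.S the difference at 0 h was 0.30 (adjusted p = 0.632), 0.16 without clutch H and 0.46 without clutch K.

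At 1.5 h the call fell on the other gene, and whether the pair differed here was not tested. At this time hoxb4.S was higher in RA than in DEAB by 1.09 (SE 0.44, adjusted p = 0.0384), in 6 of 6 clutches, from 0.02 in clutch I to 2.21 in clutch K, with 43.5% of target genes called. This call was lost without clutch G (1.15, adjusted p = 0.0815), without clutch K (0.87, adjusted p = 0.123), without clutch L (0.95, adjusted p = 0.154) and without clutch as a block (adjusted p = 0.0826). It was kept with a block for each clutch and time. For hoxd4.L the difference was 0.66 (adjusted p = 0.58). At 3 h the differences were 0.54 and 0.08 and at 4.5 h 0.36 and 0.09 for hoxb4.S and hoxd4.L, none called, beside 30.4% and 0.0% of target genes called higher. The RA minus DEAB values share their RA samples with RA minus control and their DEAB samples with DEAB minus control. For hoxd4.L at 0 h those differences from control were 0.16 in RA and -1.34 in DEAB, neither called.

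Set in order by mean level, the 12 groups of each gene sorted by time first. All 3 groups at 0 h lay below all 3 at 1.5 h, and so on to 4.5 h. For hoxb4.S every group overlapped its next neighbour in this order. For hoxd4.L the order had 1 gap without overlap, of 3.04 between RA at 3 h and control at 4.5 h. From 1.5 h on the RA group had the highest mean of the 3 treatments at each time for both genes, by gaps to the next of 0.08 to 1.09, most of them smaller than the SD of a group, 0.54 to 1.14 at these times.

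The clutches differed among themselves. Clutch L was the lowest on average, with a mean deviation from the group means of -0.91 for hoxb4.S, below in 11 of 12 groups, and -0.56 for hoxd4.L, below in 10 of 12. The residual SD after group and clutch means was 0.78 for hoxb4.S, near the median of 0.74 over the 23 target genes, and 1.07 for hoxd4.L, 21st from the lowest. The deviations of the greatest size came, for both genes, from the same 2 samples, the 0 h DEAB samples of clutch K (2.06 for hoxb4.S and 2.76 for hoxd4.L) and clutch H (-1.96 and -3.80).

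What remained after group and clutch means moved together in the pair. Over the 72 samples these deviations correlated with r = 0.734, and among the 21 other target genes with complete values each was the other's closest partner. The next was hoxb1.S, at 0.638 for hoxb4.S and 0.732 for hoxd4.L. The genes share the embryo pool, the cDNA and the gapdh value of each sample, and samples of a clutch are related, so r is a description. In alternatives chosen after seeing the data it was 0.535 against the mean of all target genes, 0.747 with no reference and 0.637 without the 0 h DEAB group. Without all 0 h groups it was 0.501, and hoxd4.L was then 5th among the partners of hoxb4.S.

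**Figure D5:**
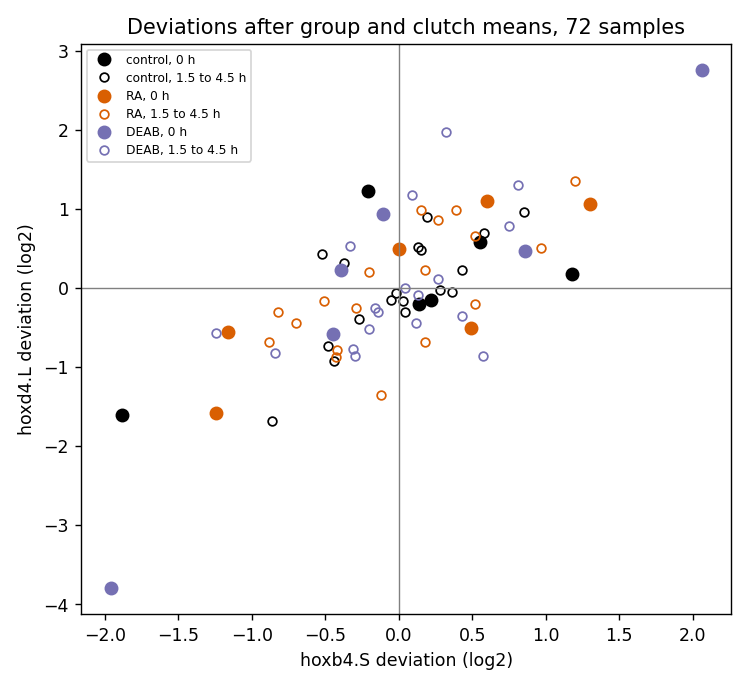
Deviation of each of the 72 samples from its group and clutch means (log2), hoxb4.S horizontal and hoxd4.L vertical, with filled points for 0 h and open points for later times. The points run from low left to high right, and the ends are the 0 h DEAB samples of clutches H and K.

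The genes with the most similar course were sought over the 12 group means, after centring each gene on their mean, by the root mean square difference. For hoxb4.S they were cyp26c1.S, which encodes an RA-degrading cytochrome P450 (0.47), hoxb1.S, a hox gene of a more anterior group (0.53), and crabp2.L, which encodes a cellular RA-binding protein (0.67), with hoxd4.L 4th at 0.69. For hoxd4.L they were hoxb1.S (0.63), cyp26c1.S (0.68) and hoxb4.S (0.69). By Pearson's r over the same 12 means hoxb1.S came first for both genes, at 0.994 and 0.97. These group means share clutches, and most genes of the panel climbed with time.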

How the data were processed

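As the study's methods describe, total RNA of pooled embryos was reverse transcribed, the cDNA was preamplified and BioMark arrays were read with EvaGreen. The authors deposited 2 tables. The deposited Ct values, handled as a score, are medians over 3 preamplifications (L primers, S primers, all genes). The deposited log2 values are relative to gapdh. All 1637 target values equalled the Ct of gapdh minus that of the gene, centred on the gene's median, within 0.001. A single reference moves every target, and unequal efficiency stretches differences.

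Groups and clutches came from sample titles. limma 3.58.1 (R 4.3.3) was fitted to all 72 samples with 12 groups and clutch as a fixed block, as the clutches are shared by design, and p-values were adjusted by Benjamini-Hochberg over the 23 target genes of each contrast (threshold 0.05). Deviations from group means correlated by 0.36 on average within clutches and -0.08 between. Within clutches the mean was 0.52 for samples of the same time and 0.32 for other times. The clutch block does not model this closer likeness at the same time, so the limma errors of time steps may be too small. Exact sign-flip tests over 6 clutches had 64 assignments. Crossing times were interpolated linearly. The limma fit was tested on simulated data for RA minus control at 0 h, with clutch effects but independent residuals between samples. The sign-flip tests and crossing times were not part of that simulation. Figures were drawn with matplotlib 3.10.9. IDs were matched to RefSeq for names and neighbours (24 of 24). No sequence or coordinate is given, as no build is named in the files. The members and lists were chosen with earlier results of these data known. Besides the members, the 3 genes nearest to each by group means were named. Some panel genes are counted in lists only. Alternatives were other references, blocks, adjustments, sample sets, levels and each clutch left out.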

Additional observations from a re-analysis of the deposited data

Results flagged for a closer look

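In 8 of 56 sets of 6 values tested, the levels of both genes in each group and their differences between treatments at each time and between times in controls, 1 clutch lay far from the other 5. Chance marks about 1 in 20 independent sets of this kind. The 56 sets share samples, so an excess over that rate cannot be read from the 8. Among levels, hoxb4.S in RA at 1.5 h was marked, with clutch H at 0.90 and the others between -1.03 and -0.81. In controls at 0 h hoxd4.L was marked, with clutch H at -3.68 and the others between -2.22 and -1.60. In DEAB at 3 h hoxd4.L was marked, with clutch J at 2.82 and the others between -0.48 and 0.71. For DEAB minus control differences of hoxb4.S, clutch K was at 1.11 at 0 h against -0.99 to -0.48, and at -1.19 at 1.5 h against 0.02 to 0.64. Clutch J was at 0.82 at 3 h against -0.83 to -0.22. For hoxd4.L, clutch J was at 3.70 at 3 h against -1.28 to -0.01, and clutch G at -1.45 at 4.5 h against -0.11 to 0.69.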

How the results depend on the processing

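Fitted with robust eBayes or without the gene with missing values, every call and direction of both genes was kept, as it was in the 24 treatment differences fitted with a replicate block for each clutch and time. With that block, hoxb4.S in RA minus control at 1.5 h stayed at 1.17 with an adjusted p of 0.000252. The fit without the replicate block lost 2 calls, hoxb4.S at 1.5 h in RA minus control (1.17) and in RA minus DEAB (1.09). Adjusting over all comparisons of a family lost these and hoxd4.L in RA minus DEAB at 0 h (1.50). Fitting only the groups compared added hoxb4.S in RA minus DEAB at 3 h (0.54) and the middle RA step of hoxd4.L (1.12), and lost hoxd4.L in RA minus DEAB at 0 h (1.50), its first steps in RA (1.72) and DEAB (2.55) and that of hoxb4.S in DEAB (1.12). The exact sign-flip test, whose smallest p is 0.03125, lost 16 calls. For hoxb4.S these were the later control steps (3.04 and 1.39), the 3 RA steps (1.91, 2.05 and 1.43), the first and last DEAB steps (1.12 and 1.61) and the RA differences at 1.5 h (1.17 and 1.09). For hoxd4.L they were the later control steps (3.17 and 1.82), the outer RA and DEAB steps (1.72, 3.15, 2.55 and 3.14) and RA minus DEAB at 0 h (1.50). After adjustment, a call in the sign-flip test depends on how many target genes reach its smallest p. In controls between 1.5 and 3 h, 14 genes had an exact p under 0.05 and 0 were called. In DEAB over the same interval 15 had one and all 15 were called. These losses thus do not speak for the 2 members alone.

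Against the mean of all target genes, calls of hoxb4.S were lost for the last step in controls (0.56), RA (0.54) and DEAB (0.64), the first in RA (0.47), and at 1.5 h for RA minus control (0.21) and RA minus DEAB (0.16). For hoxd4.L they were lost for the middle step in controls (0.35) and DEAB (0.37), the first in RA (0.28) and RA minus DEAB at 0 h (0.79). Signs turned for hoxb4.S in the first step in controls (-0.45) and DEAB (-0.10), in RA minus control at 3 and 4.5 h (-0.23 and -0.25) and in RA minus DEAB at 0 and 4.5 h (-0.41 and -0.08). For hoxd4.L they turned in the first control step (-0.04), RA minus control at all 4 times (-0.46, -0.14, -0.29 and -0.36), DEAB minus control at 4.5 h (-0.01), RA minus DEAB from 1.5 h on (-0.27, -0.44 and -0.35) and the change of the RA difference from 0 to 3 and 4.5 h (0.18 and 0.10). Crossing shifts turned to 0.0585 h (hoxb4.S, RA), 0.176 h (hoxd4.L, RA) and -0.122 h (hoxd4.L, DEAB). The last was also negative with a lower (-0.207 h) or a higher (-0.0148 h) crossing level. With no reference gene, calls of hoxb4.S were lost for the last control step (1.22), the first and last RA steps (1.13 and 1.08), the first DEAB step (0.59) and the RA differences at 1.5 h (1.06 and 0.88), and those of hoxd4.L for the middle control step (1.17), the first RA step (0.94) and the middle DEAB step (0.96). Signs turned for hoxb4.S in RA minus control at 0 h (0.10), DEAB minus control at 4.5 h (0.04) and the changes of the RA difference to 4.5 h (-0.02) and of the DEAB difference to 3 h (-0.12), and for hoxd4.L at 4.5 h in RA minus control (-0.03) and RA minus DEAB (-0.23). The cause of these losses was not tested.

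With each clutch left out in turn, 28 of 76 results lost a call or turned sign at least once. For hoxb4.S the ranges were 0.98 to 1.34 for RA minus control at 1.5 h, 0.87 to 1.31 for RA minus DEAB at 1.5 h, 1.23 to 1.52 for the last control step and 0.58 to 1.78 for the first DEAB step. Uncalled differences of hoxb4.S ran from -0.24 to 0.10 (RA at 0 h), -0.03 to 0.39 (RA at 4.5 h), -0.04 to 0.33 (DEAB at 1.5 h) and -0.27 to 0.03 (DEAB at 4.5 h), and changes with time from -0.13 to 0.56 (RA, to 4.5 h) and -0.26 to 0.43 (DEAB, to 3 h). For hoxd4.L the ranges were 1.05 to 1.84 (RA minus DEAB at 0 h), 1.13 to 2.20 (first RA step) and 1.31 to 2.03 (middle DEAB step). Its uncalled differences ran from -0.10 to 0.51, -0.05 to 0.25 and -0.07 to 0.29 (RA at 0, 3 and 4.5 h), -0.69 to 0.31 and -0.12 to 0.31 (DEAB at 3 and 4.5 h) and -0.18 to 0.64 and -0.01 to 0.21 (RA minus DEAB at 3 and 4.5 h). Changes of its RA difference ran from -0.01 to 0.99, -0.35 to 0.23 and -0.58 to 0.28 (to 1.5, 3 and 4.5 h), and its DEAB crossing shift from -0.0724 to 0.335 h. The response of hoxd4.L minus that of hoxb4.S ran from -0.20 to 0.11 (RA at 3 h), -0.10 to 0.28, -0.09 to 0.59 and -0.03 to 0.28 (DEAB at 1.5, 3 and 4.5 h).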
